A study of Bos taurus and Capra hircus with 9 samples.

Results

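In the deposited table of 296 bovine miRNA entries, the entries named miR-205 or miR-203, with or without a letter or arm suffix, came to 1 entry, bta-miR-205, while miR-203 was not analysed here. The level of this entry was followed in small RNAs of milk-derived extracellular vesicles (EVs), the membrane particles that cells release into milk, from 4 Alpine goats and 5 Holstein Friesian cows. Each library came from 1 animal. The groups were different species, with no agent or engineered genetic change applied. The goats collected were at 26 ± 9 days in milk and the cows at 30 ± 7 days, which are group values. The goat value also covers 1 collected goat that failed RNA quality control and has no library here. Species differed together with breed, farm and an added acetic acid step for goat milk, so these cannot be told apart, and the methods name the goats as primiparous and give no parity for the cows. Skimmed milk depleted of cells was the starting material, so a value describes RNA of a vesicle preparation and not of sorted cells.

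miR-205 is found in stratified and glandular epithelia of mammals. In the human and mouse mammary gland it is known above all from the basal and myoepithelial layer, which lies beneath the luminal cells that secrete milk. It represses ZEB1 and ZEB2, the transcription factors that silence E-cadherin, and it shares these targets with the miR-200 family of epithelial miRNAs. A miRNA recognises its targets mainly through its seed, bases 2 to 8 from the 5′ end. The gene MIR205 follows CAMK1G in the bovine ARS-UCD2.0 annotation of RefSeq, and LAMB3, which encodes a laminin chain of epithelial basement membranes, is the next gene beyond CAMK1G. Its neighbour on the other side is a long noncoding RNA gene, LOC104974529.

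The mature sequences listed for miR-205 and for the 5 members of the miR-200 family are given 5′ to 3′ as DNA letters, with the seed in capitals, because these letters decide which entries share a seed and how far the reads of one can be told from those of another.
miR-205: tCCTTCATtccaccggagtctg
miR-200b: tAATACTGcctggtaatgatg
miR-200c: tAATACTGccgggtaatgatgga
miR-429: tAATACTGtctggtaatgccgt
miR-200a: tAACACTGtctggtaacgatgtt
miR-141: tAACACTGtctggtaaagatgg

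The seed of miR-205 was carried by 0 of the other 295 entries. Its longest unbroken run in common with any of them was 6 bases, and aligned from the first base each of them differed from it at 10 or more positions. In the miR-200 family, by comparison, miR-200b, miR-200c and miR-429 had one seed and miR-200a and miR-141 the other. miR-200a and miR-141 had a run of 16 bases in common, and miR-200b and miR-200c differed at 1 position when aligned from the first base. All 9 libraries were counted on bovine entries, and no goat sequence was used here. Any effect of this on goat values was not tested and cannot be told apart from species.

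The values are TPM, tags scaled to a total of 1000000 per library, written by the authors as whole numbers. A value of 0 is therefore a level below what the table writes, and the sources used here do not say whether numbers were rounded or cut. The 296 entries added up to 23.9% to 40.6% of that total in goats and 26.7% to 42.0% in cows. Read numbers per library cannot be recovered from these values, so the counting error of a value of a few TPM is unknown. In each library the miR-200 family summed to 26818 TPM or more, so this family of epithelial markers was abundant in the vesicles of both species.

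miR-205 was listed in each goat and was at or near 0 in each cow. It stood at 16 TPM in goat 17, 25 TPM in goat 44, 17 TPM in goat 79 and 12 TPM in goat 127. In cows 1, 2, 3 and 20 it was listed at 0 TPM, and cow 62 had 1 TPM. The groups did not overlap, and the lowest goat was 11 TPM above the highest cow. The goats averaged 17.5 ± 5.45 TPM (SD, n = 4), and because 4 of the 5 cows were at 0, no fold of TPM is given. The difference of the means, goats minus cows, was 17.3 TPM (two-sided exact permutation test over the 126 splits of the animals, p = 0.00794, the smallest p it can give). Entries at 0 were more numerous in each cow, 73 to 93 of the 296, than in any goat, with 49 to 68. The part of the higher mean read number of goats in this was not tested.

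**Figure D1:**
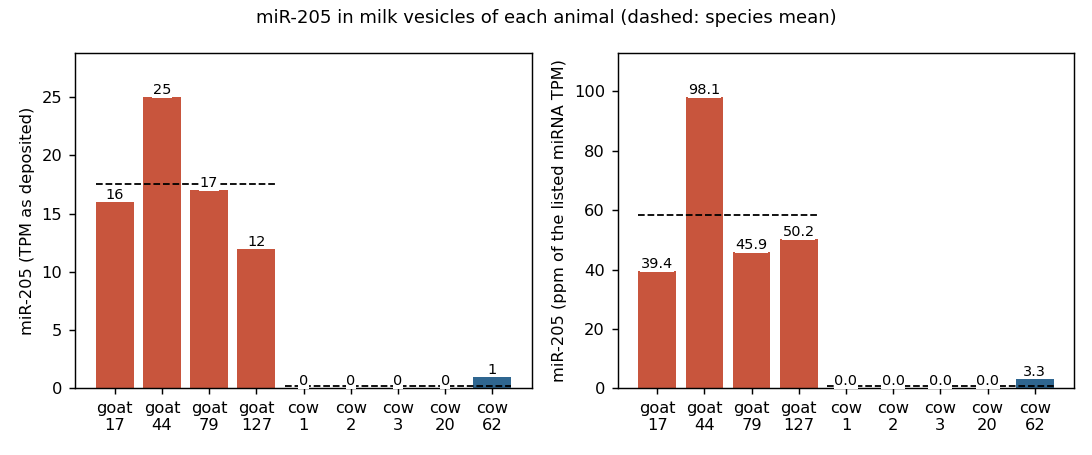
Level of miR-205 in each animal, on the left in TPM as deposited and on the right in ppm of the TPM listed in that library, with goats in red, cows in blue and the mean of each species as a dashed line. The 4 goats ran from 12 to 25 TPM, and cow 62, with 1 TPM, was the only cow above 0.

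In a limma model of log2(TPM + 1) fitted to all 217 entries above 1 TPM in at least 4 libraries, miR-205 was higher in goats, with a log2 fold change, goat minus cow, of 3.96 and a standard error of 0.31 (adjusted p = 3.31e-08 by limma, Benjamini-Hochberg over the 217). The filter was passed through goats alone, which fixed the direction, so this call is a description of the gap and not added evidence for its sign. Among the entries tested, 61.3% were called in either direction and 37.3% as higher in goats, so a call between these species was common. The median log2 fold change of all entries tested was 0.24. miR-205 had the 22nd largest log2 fold change and the 19th smallest adjusted p of the 217. The size of the fold change depends on the pseudocount, being 6.72 with 0.1 and 1.41 with 10, since the cow values are at the floor of the table.

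Among goats, miR-205 was a miRNA of middle level. It ranked 136 in goat 17, 121 in goat 44, 136 in goat 79 and 137 in goat 127 among the 296 entries, and 133 by goat mean. Its coefficient of variation over the 4 goats was 31.1%. Of the other 27 entries with a goat mean from 10 to 30 TPM, 10 had a lower coefficient, and their median was 35.4%. In TPM as deposited, the spread of miR-205 between goats was thus near that of other miRNAs at its level. Its coefficient was 46.0% as a share of the listed tags and 42.8% with libraries scaled by their median ratio. The other entries were not compared on those scales. Goat 44 had the highest level on every scale. As a share of the listed miRNA tags, miR-205 took 98.1 ppm (parts in 1000000) in goat 44, against 39.4 ppm in goat 17, 45.9 ppm in goat 79 and 50.2 ppm in goat 127. The listed tags of goat 44 added up to 254807 TPM, and those of goat 127, with the lowest miR-205 in TPM, to 239233 TPM.

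In cows the 1 TPM of cow 62 corresponds to 3.27 ppm of its listed tags. It was 1 of 4 entries whose only nonzero cow value was in cow 62, and the other cows had 0 to 6 such entries each. Whether this single whole unit in 1 of 5 cows is a low level or none was not tested. The table does not hold the number of reads behind it in that library.

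The other miRNAs of stratified epithelium were scarcer than miR-205 in goats, and in cows they were likewise at or near 0. miR-31, which in human and mouse is known from keratinocytes and hair follicles, was listed at 1 TPM in goat 44 and 2 TPM in goat 79, and at 0 in goats 17 and 127. In cows it was at 1 TPM in cow 62 and at 0 in the other 4. miR-184, known from the cornea and epidermis, was at 1 TPM in goat 79 and at 0 in the other 8 animals. Neither reached the filter, so of 3 listed entries of this kind, 1 was tested, miR-205. Cow 62 was the only cow with a nonzero value of miR-205 or of miR-31.

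The miR-200 family, which acts on the same ZEB factors, was far more abundant and differed little between the species. Summed over its 5 entries it came to 45349 TPM in goat 17, 28534 TPM in goat 44, 37984 TPM in goat 79 and 26818 TPM in goat 127, against 30424 to 43532 TPM in cows. The ranges overlapped, and the difference of the means, -1623 TPM, did not pass the two-sided exact permutation test (p = 0.714). As a share of the listed TPM the family took 11.0 ± 0.46% on average over the 4 goats and 10.9 ± 0.73% over the 5 cows (± SD), with p = 0.921 in the same exact test.

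Of the 5 members, 4 did not pass the limma test, 1 was lower in goats and 0 were higher, also at an unadjusted p under 0.05. The median log2 fold change of the family was -0.20. miR-141 was the lower one, at 572, 245, 403 and 376 TPM in goats 17, 44, 79 and 127, against 907, 1204, 780, 650 and 1160 TPM in cows 1, 2, 3, 20 and 62. No goat reached the lowest cow. Its log2 fold change was -1.26 with a standard error of 0.29 (adjusted p = 0.00131, limma). Over all entries tested 24.0% were lower in goats, so 1 of 5 is near the background. For miR-200a the mean was 11977 ± 2114 TPM over 4 goats and 13668 ± 2109 TPM over 5 cows (± SD; adjusted p = 0.471, limma). miR-200b had an adjusted p of 0.290, miR-200c of 0.345 and miR-429 of 0.574 in the same limma fit. When each library was divided by its listed total, miR-200b passed with a log2 fold change of 0.43 (adjusted p = 0.0143, limma). miR-200c passed with -0.40 when that total left out miR-148a (adjusted p = 0.0145, limma) and also with -0.40 when libraries were scaled by their median ratio (adjusted p = 0.0377, limma).

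**Figure D2:**
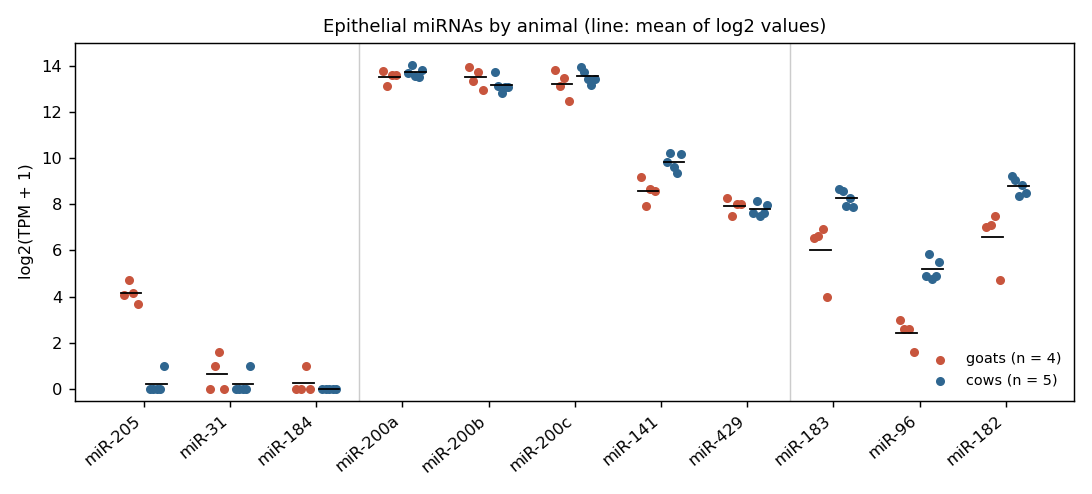
log2(TPM + 1) of 3 miRNAs of stratified epithelium (left panel), the 5 miR-200 family members (middle) and the 3 members of the miR-183 cluster (right), with a point per animal, goats in red, cows in blue and a line at the mean of the log2 values. miR-205 lies above 0 in all 4 goats and in 1 cow, while the points of miR-200a, miR-200b, miR-200c and miR-429 overlap between the species.

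Because miR-205 and the miR-200 family were measured in the same library, their ratio does not depend on how the library was scaled, apart from the pseudocount. The log2 level of miR-205 minus the mean log2 level of the 5 family members was -7.71 in goat 17, -6.30 in goat 44, -7.33 in goat 79 and -7.42 in goat 127. In cows it was -11.76 in cow 1, -11.85 in cow 2, -11.38 in cow 3, -11.35 in cow 20 and -10.70 in cow 62. Each goat lay above each cow. The mean was -7.19 ± 0.61 over the 4 goats and -11.41 ± 0.45 over the 5 cows (± SD), a difference of 4.22 on the log2 scale (two-sided exact permutation test, p = 0.00794). With pseudocounts of 0.1 and 10 this difference was 6.97 and 1.66 on the log2 scale, with the same p in the exact test. That p is the smallest the test can give. It follows from the gap in miR-205 TPM, as the family differed little, so it is not added support. The cow values are set by miR-205 at or near 0 and by the family level, so they give the place of the table's floor and not a measured ratio. In linear terms miR-205 amounted to 353 ppm of the family's TPM in goat 17, 876 ppm in goat 44, 448 ppm in goat 79 and 447 ppm in goat 127, and to 28.0 ppm in cow 62. Goat 44 thus had the highest ratio as well as the highest level, and without it the difference on the log2 scale was 3.92.

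**Figure D3:**
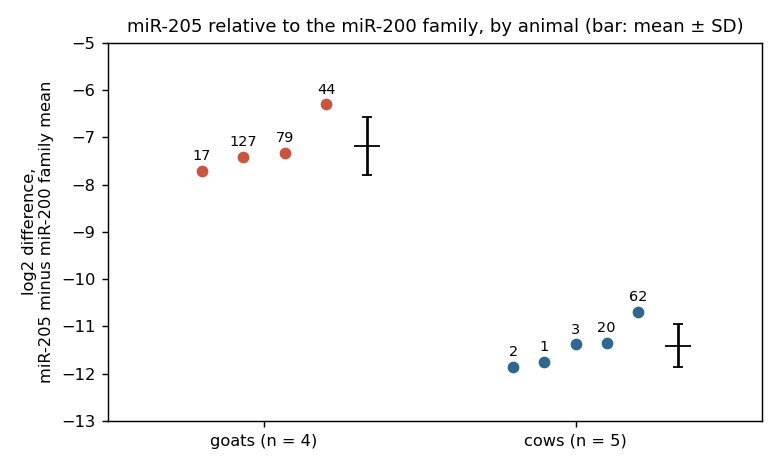
Difference between the log2 level of miR-205 and the mean log2 level of the miR-200 family in each animal (numbers give the animal), with the mean and SD of each species beside the points. The 4 goats run from -7.71 to -6.30 and the 5 cows from -11.85 to -10.70.

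The miR-183 cluster, known from sensory epithelia and from epithelial cancers, moved the other way. All 3 entries were lower in goats, against 24.0% of all entries tested. They belong to the same cluster and were each lowest in goat 127, so they need not be separate observations. miR-183 had 93, 99, 121 and 15 TPM in goats 17, 44, 79 and 127, against 233 to 403 TPM in cows, and its log2 fold change was -2.23 with a standard error of 0.49 (adjusted p = 9.86e-04, limma). miR-96 and miR-182 had log2 fold changes of -2.74 and -2.22. Without goat 127 the log2 fold change was -1.55 for miR-183 and -1.60 for miR-182, and both still passed the test. Goat 127 had the lowest sum of the cluster, 42 TPM, against 227 to 303 TPM in the other goats. It also had the lowest miR-205 in TPM as deposited. As a share of the listed tags, miR-205 was lowest in goat 17, at 39.4 ppm against 50.2 ppm in goat 127. The epithelial lists therefore had no common direction, with miR-205 higher in goats, 4 of 5 miR-200 entries not passing and the miR-183 cluster lower.

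**Figure D4:**
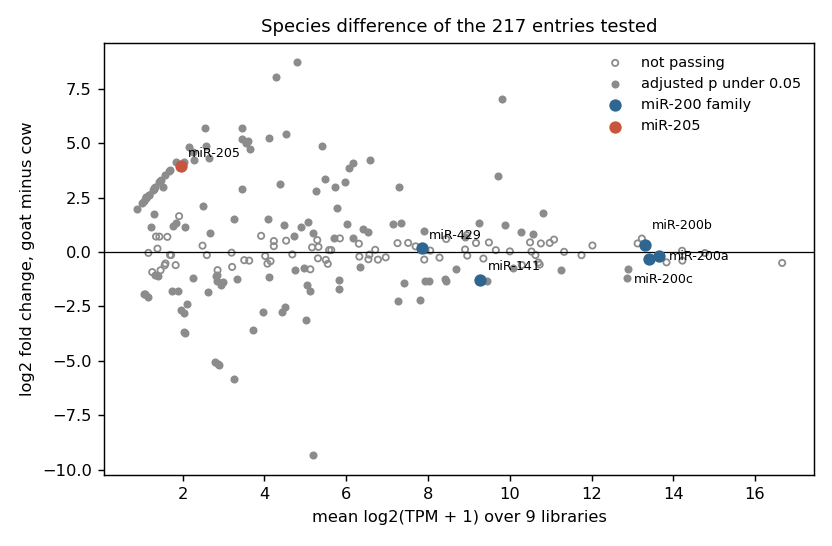
log2 fold change, goat minus cow, against the mean of log2(TPM + 1) over the 9 libraries for the 217 entries tested, with grey points filled where the adjusted p was under 0.05 by limma, and of the coloured points miR-205 and miR-141 passed. miR-205 (red, 3.96) lies on the arc at the upper left formed by entries at or near 0 in all cows, and the miR-200 family (blue) lies between -1.26 and 0.34.

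Several markers of other cell types also differed between the species. All 6 leukocyte entries tested were higher in goats, against 37.3% of all entries, and in goats the list of 7 entries summed to 1172 TPM in goat 17, 635 TPM in goat 44, 1230 TPM in goat 79 and 444 TPM in goat 127, against 17 to 52 TPM in cows. miR-223, which is enriched in myeloid cells, was listed at 0 in cows 2 and 3, and miR-142-3p, a marker of blood cells, at 0 in goat 127 and in 4 of the 5 cows. Goat 44, with the highest miR-205 in TPM, had the second lowest leukocyte sum of the 4 goats. Goat 127, with the lowest miR-205 in TPM, had the lowest sum. In goat 17, 813 TPM of the 1172 TPM was miR-155, against 218 TPM of this entry in goat 44. In the list for endothelium and stroma, 1 of 2 tested entries was higher in goats, miR-143 of smooth muscle and connective tissue. The 3 listed entries summed to 217 to 425 TPM in goats and 19 to 30 TPM in cows. Most of this was miR-143, with 216 to 423 TPM in goats and 14 to 25 TPM in cows. The endothelial miR-126-3p had the lower mean in goats, 1 TPM against 2.8 TPM in cows, and did not pass (adjusted p = 0.144, limma). It was at 0 in goats 17 and 127 and in cow 2, and miR-145 was at 0 in all cows. Red cell entries (miR-451 and miR-486) summed to 1 to 37 TPM in goats and 0 to 10 TPM in cows, with miR-451 at 0 in goats 17 and 44 and in cows 3, 20 and 62. The part of these other cell types in the miR-205 difference was not tested, and in vesicle RNA a change in the number of releasing cells cannot be told apart from a change in the miRNA per cell.

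The pattern of miR-205, present in goats and at the floor in cows, was one of several alike. Of the 217 entries tested, 28 were above 1 TPM in each goat and at most 1 TPM in each cow, and miR-205 was number 7 of these by goat mean. Each goat exceeded each cow for 67 entries, 30.9% of those tested. Among 27 other entries at a goat mean from 10 to 30 TPM, 8 were at most 1 TPM in each cow, while 16 had a cow mean of at least 10 TPM. Entries next to miR-205 by goat mean show both kinds. miR-29c ran from 11 to 20 TPM in goats, against 46 to 87 TPM in cows. miR-3613a ran from 13 to 20 TPM in goats, against 3 to 7 TPM in cows. miR-708 ran from 5 to 25 TPM in goats and was at 0 in every cow. Just above miR-205 stood miR-10a, which was also at 0 in every cow, and above it miR-7859 and miR-1468, both with a higher mean in cows. A like level in goats thus went with cow levels from 0 up to 89 TPM.

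The entries nearest to miR-205 by Euclidean distance of log2(TPM + 1) over the 9 libraries were miR-10a (distance 1.28), miR-543 (1.83), miR-452 (2.06), miR-370 (2.09), miR-323 (2.12) and miR-411c-5p (2.28). miR-10a lies among the HOX genes in mammals, miR-452 is a neighbour of miR-224, and miR-370, miR-323, miR-543 and miR-411 belong in mammals to the large imprinted miRNA cluster of the DLK1 region. miR-10a was at 19 TPM in goat 17, 27 TPM in goat 44, 21 TPM in goat 79 and 7 TPM in goat 127. This is the order of goats that miR-205 had in TPM, with goat 44 highest and goat 127 lowest. miR-452 reached 37 TPM in goat 127, miR-323 29 TPM and miR-411c-5p 33 TPM, and for these 3 entries goat 127 was the highest goat, unlike for miR-205. miR-543 and miR-370 were highest in goat 17, at 20 TPM and 15 TPM. Of the 6, miR-323 and miR-411c-5p were at 1 TPM in cow 2, and the other 4 were at 0 in every cow. The distance is carried mainly by the gap between species, and the profiles were less alike among goats than the rank by distance shows.

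**Figure D5:**
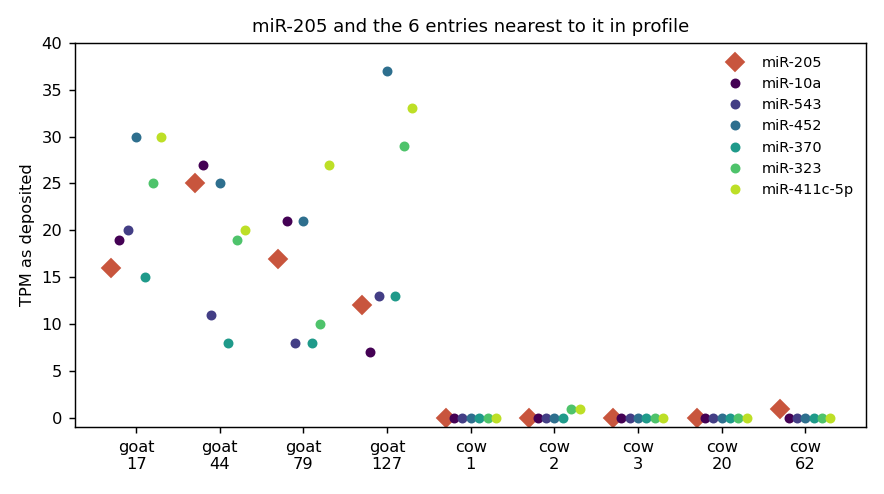
TPM of miR-205 (red diamonds) and of the 6 entries nearest to it in profile (circles) in each animal, goats on the left and cows on the right. All 7 are at 7 TPM or more in each goat and at most 1 TPM in each cow, and miR-205 and miR-10a are highest in goat 44.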

How the data were processed

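Libraries were made with a NEBNext kit from EV RNA and sequenced on an Illumina NextSeq. The authors trimmed adapters, counted tags on bovine miRBase 20 entries for both species, and normalized them as TPM, tags scaled to a total of 1000000. The deposited score is this TPM as whole numbers. The sources used here do not give the mapping program or the genome build. Species were compared with limma 3.58.1 (R 4.3.3, variance trend) on log2(TPM + 1) for entries that exceeded 1 TPM in 4 libraries or more, at a Benjamini-Hochberg threshold of 0.05, and single values by two-sided exact permutation tests that count splits with an absolute difference of means at least as large. The model was tested on simulated data. Single TPM values keep no depth, so no count model or interval was computed. The limma p-values set the difference between species against the spread between animals, and the exact p-values count splits of the animals. Python 3.11 was used for the other steps.

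The members, the 6 lists of marker miRNAs and the alternatives were chosen with earlier results of these data known. The entries named are miR-205, every listed entry of the lists, the 6 nearest in profile and the 3 above and 3 below miR-205 in goat mean. Window limits of 10 and 30 TPM were chosen after seeing the data. Leaving out an animal kept the 217 entries. Alternatives were other pseudocounts, filters, scalings, variance models and leaving out each animal. RefSeq gave gene names and neighbours only.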

Additional observations from a re-analysis of the deposited data

Results flagged for a closer look

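Among 36 quantities screened in both species, 10 of 72 groups held an animal that stood apart by Dixon's criterion. Chance alone flags about 1 of 20 groups. The 72 include groups with every animal at 0, which cannot be flagged, so the share flagged is not directly comparable with that rate. Several of the 10 are whole units above 0, where the criterion is met by construction. They were miR-205 in cow 62 (1 TPM, others 0), miR-31 in cow 62 (1 TPM, others 0), miR-184 in goat 79 (1 TPM, others 0), miR-142-3p in cow 1 (1 TPM, others 0), and miR-323 and miR-411c-5p in cow 2 (1 TPM each, others 0).

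At higher levels, miR-155 was at 813 TPM in goat 17, against 218 to 302 TPM in the other goats, and miR-200b was at 13407 TPM in cow 1, against 7222 to 8853 TPM in the other cows. miR-451 was at 26 TPM in goat 79, against 0 to 3 TPM in the other goats, and miR-486 was at 8 TPM in cow 1, against 0 to 1 TPM in the other cows.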

How the results depend on the processing

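For miR-205, whose direction the filter fixed and whose cow values are at the floor of the table, the log2 fold change was 1.41 to 6.72 under the 9 alternatives to the limma fit that gave a value (adjusted p 2.83e-08 to 7.57e-06, limma) and 3.79 to 4.16 with each animal left out (adjusted p 3.08e-08 to 4.42e-06, limma). These ranges show how its size depends on the settings and are not added support for its sign. The filter of above 1 TPM in all 9 libraries removed miR-205, so it gave no value there. The difference in TPM was 17.0 to 18.5 TPM under 3 scalings and 14.8 to 19.1 TPM with an animal left out (two-sided exact permutation test, p up to 0.0286). Each of these p-values was the smallest the test can give for the animals kept, so they differ only through group size. The difference relative to the miR-200 family was 3.92 to 4.40 on the log2 scale with an animal left out, and 4.05 with the family's TPM summed. With the filter of above 1 TPM in all 9 libraries, 66 entries were called, 34 higher and 32 lower in goats, against 133 called, 81 higher and 52 lower, as fewer entries were tested (139 against 217). Of the miR-200 family, 2 members were called under each of the 3 scalings (listed total, that total less miR-148a, median of ratios), against 1 on the deposited TPM. No paired analysis was possible because the goats and cows are separate animals and the design pairs none of them. Whole-number TPM near 0 limit what can be said of miR-205 in cows.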
